A study of Homo sapiens with 10 samples.

Results

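The RNA response of BJ fibroblasts to 19 h of nutlin-3a was described gene by gene from 2 RNA-Seq libraries, a control library (0 h) and a library of cells kept on nutlin-3a for 19 h. BJ cells are human foreskin fibroblasts, here immortalised by expression of telomerase reverse transcriptase, and both groups carry that transgene and no other perturbation is named for them. The genes compared were those with at least 5 FPKM (fragments scaled to transcript length and to the reads of the library) in either library, which held for 8330 of the 13279 listed transcripts. Of these, 7378 reached 5 FPKM in both libraries, 594 in the control alone and 358 at 19 h alone. Values were floored at 1 FPKM before a log2 change was taken, and a gene is called higher or lower where its floored level differed by at least 2-fold. Each group is 1 library, so no change below has a replicate check and no p-value is given. The series holds RNA-Seq libraries of 2, 4 and 6 h as well, whose levels are set beside those of the main pair, and Ribo-Seq libraries of the same times.

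Nutlin-3a occupies the pocket by which the ubiquitin ligase MDM2 binds p53, so that p53 escapes degradation and accumulates. p53 is a transcription factor whose direct targets include inhibitors of the cell cycle, death receptors, DNA repair enzymes and MDM2 itself. Its target CDKN1A (p21) blocks cyclin-dependent kinases, which keeps the retinoblastoma family proteins in their repressive state. These proteins act with E2F factors on genes of DNA replication and, as part of the DREAM complex, on genes of mitosis.

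Read totals of 23845537 (control) and 26048872 (19 h) were worked back from the steps between FPKM values, and a compared gene had a median of 1179 and 1183 reads. Counting alone gave a log2 change a median SE of 0.0607. All 14 fibroblast markers were among the genes compared, at 14.8 to 4194 FPKM in the control. Of 10 endothelial and 10 smooth and striated muscle markers none reached 5 FPKM, and the summed level of each list was at most 3.2 FPKM in either library. Of the epithelial markers, KRT8 and KRT18 were among the genes compared, and of the blood cell markers CD68 alone was. The summed epithelial marker level was 308 FPKM in the control and 260 FPKM at 19 h. The summed blood marker level was 64.5 FPKM in the control and 88 FPKM at 19 h, nearly all of it CD68, a lysosomal protein. The study's methods describe a batch effect of sequencing runs, and say that each condition was set against a control of its own run. The labels of these libraries name no run, and the part of runs in these changes was not tested.

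At 19 h most transcripts stood close to their control level, while a small group rose and a larger one fell. The change was less than 1.5-fold for 6511 genes (78.2%), and its median was -0.05 on the log2 scale. A total of 223 genes (2.68%) were at least 2-fold higher and 590 (7.08%) at least 2-fold lower. At 4-fold, 46 genes (0.552%) were higher and 277 (3.33%) lower. The higher genes had a median of 5.71 FPKM in the control and 16.1 FPKM at 19 h. Their share of all listed FPKM went from 0.853% to 2.82%. Of them, 100 were below 5 FPKM in the control and passed the filter only through their 19 h level. Of the lower genes, 359 were below 5 FPKM at 19 h and passed only through the control. The medians of both groups thus follow in part from the filter. The lower genes had a median of 19 FPKM in the control and 3.63 FPKM at 19 h, and their share went from 6.26% to 1.81%. Among the lower genes 111 ended below 1 FPKM, so their floored changes are bounded by the floor. Only 10 of the higher genes were below 1 FPKM in the control. Where the mean of both libraries was 20 to 50 FPKM, 2.07% of genes were higher and 5.96% lower, and where it was 100 FPKM or more, 1.68% were higher and 2.68% lower. Genes with a mean below 5 FPKM entered only through the library in which they are higher, so their share of calls is not compared. Reads were recovered for 803 of the 813 called genes, and for each of the 803 the 95% counting interval of the fold excluded no change. That interval covers counting error only. The genes were chosen for a 2-fold difference in the same reads, so this outcome was largely set in advance and is no support for the calls. A total of 149 genes lay between 1.9- and 2.1-fold, on either side of the threshold.

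**Figure D1:**
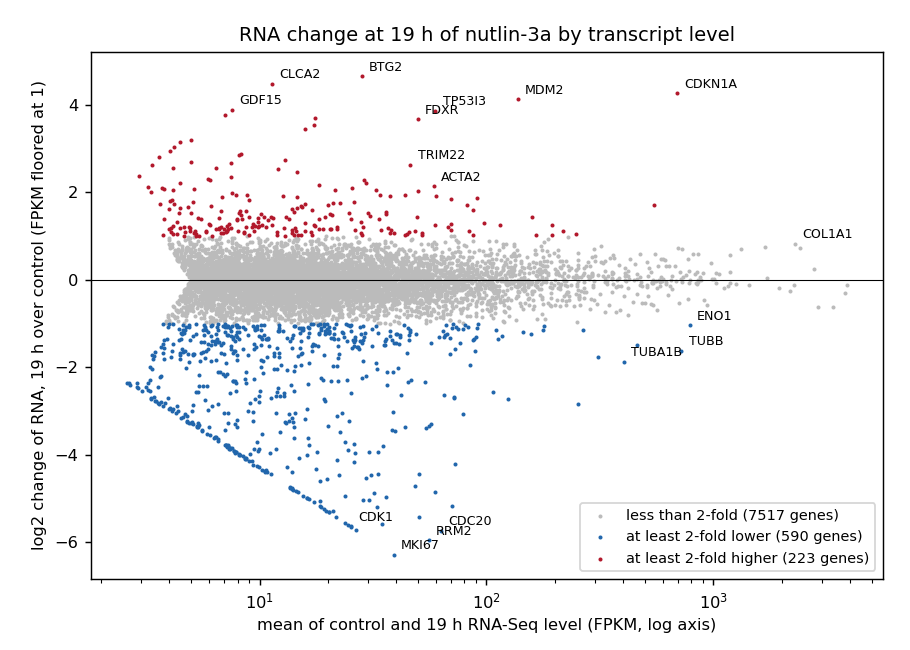
Each point is a gene. The x axis is its mean RNA-Seq level in the control and 19 h libraries (FPKM, log axis) and the y axis its log2 change on values floored at 1 FPKM, with 223 genes at least 2-fold higher in red, 590 at least 2-fold lower in blue and the rest in grey. The slanted lower edge is the line of genes below 1 FPKM at 19 h, and few abundant transcripts are called.

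CDKN1A and MDM2 stood far above the control. The CDKN1A level was 68.6 FPKM in the control and 212, 915, 1204 and 1316 FPKM at 2, 4, 6 and 19 h. At 19 h this was 19.2-fold the control (95% counting interval 18.3 to 20.1). The MDM2 level was 14.9, 36.3, 203, 254 and 259 FPKM in the same order, 17.5-fold the control at 19 h (16.8 to 18.2). Both were higher in every treated library than in the control, and most of the distance was covered by 4 h.

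Of 102 p53 target genes on a list written from general knowledge, 88 were in the table and 79 had 5 FPKM in either library. Of these 79, 51 (64.6%) were at least 2-fold higher, against 2.68% of all genes compared, and none was 2-fold lower. Their median log2 change was 1.42, against -0.05 over all genes. The list was written with earlier results of these data known, so its count is a description. The summed level of the list was 3043 FPKM in the control and 3928, 6142, 6845 and 7554 FPKM at 2, 4, 6 and 19 h.

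Genes that act back on p53 were among the most raised groups, with 6 of 7 members higher and a median log2 change of 1.76. Beside MDM2 these were TP53INP1, a promoter of p53 phosphorylation and autophagy (2.75 to 32 FPKM, log2 change 3.54), PHLDA3, an inhibitor of AKT (39.1 to 142 FPKM, 1.86), PLK3 (10.4 to 35.1 FPKM, 1.76), CCNG1 (38.3 to 125 FPKM, 1.71) and PPM1D, the phosphatase WIP1 that reverses p53 activation (4.15 to 12.1 FPKM, 1.54). PLK2 had a log2 change of 0.15.

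Among the 11 targets that the list groups under cell-cycle arrest 6 were higher. This group too is that of the list and does not give the role of each member. BTG2, an anti-proliferative adaptor of mRNA deadenylation, had the largest rise of all genes compared, from 2.15 FPKM in the control to 12.6, 64.1, 50.5 and 54.4 FPKM at 2, 4, 6 and 19 h, a log2 change of 4.66. ZMAT3, an RNA-binding zinc finger protein, went from 9.94 to 48 FPKM (2.27). FBXW7, a substrate receptor of a ubiquitin ligase, PLXNB2 and PRDM1 rose with log2 changes of 1.38, 1.26 and 1.20. GADD45A, at 50.9 and 95.5 FPKM, had a log2 change of 0.91, and GADD45B one of -0.35.

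Of 18 genes of death and survival 12 were higher, and they included both sides of that decision. BBC3 (PUMA), a killer protein of the BCL2 family, went from 1.95 to 14.2 FPKM (2.87). The TRAIL receptors TNFRSF10A and TNFRSF10B, which carry a death domain, had log2 changes of 2.21 and 1.92, and TNFRSF10D, a decoy receptor without a working death domain, one of 1.39. TRIAP1, which restrains apoptosis, rose from 15.7 to 59.4 FPKM (1.92). PMAIP1 (NOXA) had a log2 change of 0.29, BCL2L1 one of 0.73 and BID one of -0.20, all short of the threshold.

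The DNA repair group had 5 of 8 members higher. RRM2B, the p53-dependent small subunit of ribonucleotide reductase, went from 9.66 to 41.3 FPKM (4.27-fold), whereas the S-phase subunit RRM2 fell, as given below. DDB2 and XPC, which recognise ultraviolet damage, had log2 changes of 1.54 and 1.02, and POLH, a polymerase for damaged templates, 1.17. PCNA is on both this list and that of DNA replication, and its level was 135, 127, 154, 128 and 94.8 FPKM from the control to 19 h, a log2 change of -0.51.

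Targets that the list groups under metabolism and redox control had the largest median of the p53 groups, 2.21, with 9 of 13 higher. The group is that of the list and does not give the role of each member. TP53I3, a quinone oxidoreductase, went from 7.64 to 112 FPKM (3.87), and FDXR, the mitochondrial ferredoxin reductase, from 7.27 to 92.5 FPKM (3.67). SESN1 and SESN2, which restrain mTORC1 signalling, went from 3.38 to 22.6 FPKM (2.74) and from 4.53 to 24.9 FPKM (2.46). CYFIP2, ACER2 and C12orf5 (TIGAR, a phosphatase of the glycolytic pathway) had log2 changes of 3.71, 2.94 and 2.21. SCO2, an assembly factor of cytochrome oxidase, was at 17.8 and 13.2 FPKM (-0.43).

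Of 8 targets that the list groups under autophagy and trafficking 6 were higher. The largest rise was of SPATA18, a regulator of mitochondrial quality, from 2.67 to 29 FPKM (3.44). TNFRSF14, a TNF receptor family gene that the list also puts here, went from 3.54 to 20.5 FPKM (2.54). DRAM1 had a log2 change of 1.25. Of 14 secreted and other targets 7 were higher. GDF15, a stress cytokine, was at 0.245 FPKM in the control and at 4.82, 70.7, 13.1 and 14.8 FPKM in the 2, 4, 6 and 19 h libraries. Its highest level was thus in the 4 h library, and with 7 control reads its 60.6-fold rise at 19 h has a counting interval of 29.2 to 152. IGFBP3, at 47.8 and 95.6 FPKM, lay at the edge of the threshold (log2 change 1.00) and was not called.

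**Figure D2:**
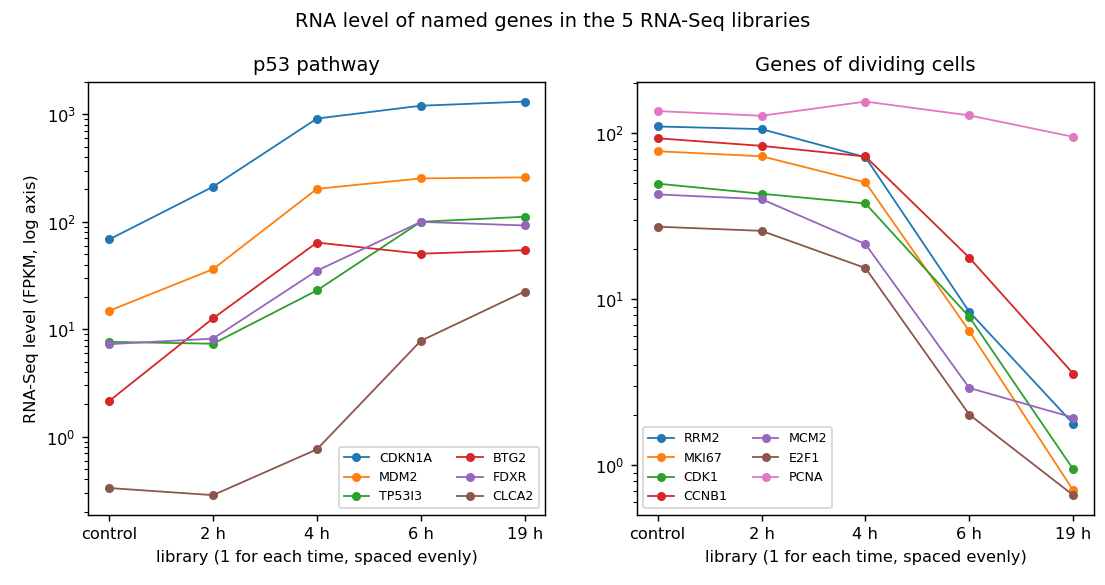
RNA-Seq level (FPKM, log axis) of 6 genes of the p53 pathway (left) and 7 genes of dividing cells (right) in the 5 libraries, 1 for each time, spaced evenly along the x axis. CDKN1A and MDM2 are near their 19 h level by 4 h and CLCA2 is low in the first 3 libraries. On the right 6 genes are far lower at 6 h and 19 h and PCNA is not.

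Outside that list, the largest rises were of genes with little or no transcript in the control. CLCA2, a membrane protein of the chloride channel regulator family, was at 0.333 FPKM in the control and at 0.286, 0.763, 7.81 and 22.4 FPKM in the 2, 4, 6 and 19 h libraries (log2 change on floored values 4.49). SULF2, a sulfatase that edits heparan sulfate, was at 0.06 FPKM in the control and 8.85 at 19 h (3.15), with 7 and 1133 reads. KRT17, a keratin with near-identical copies in the genome, went from 0.55 to 13.6 FPKM (3.76). PAPPA, a protease of IGF-binding proteins, went from 0.83 to 9.18 FPKM (3.20), and FAM198B from 0.148 to 8.27 FPKM (3.05). These genes were at their highest in the 19 h library.

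Of the 223 higher genes, 158 were on none of the 30 lists. The largest rises among these included genes of varied function. PLTP, the phospholipid transfer protein of plasma, was at 6.60, 5.35, 6.57, 13.6 and 29.8 FPKM from the control to 19 h (2.18). ABCA1, the cholesterol exporter, was at 0.743 FPKM in the control and 5.16 FPKM at 19 h (2.37), and APOD, a lipid-binding lipocalin, at 1.41 and 6.01 FPKM (2.09). The semaphorin receptors PLXNB1 and PLXNB3 both had a log2 change of 2.55, and EFNB1, an ephrin ligand, one of 2.31. SLC7A8, a transporter of neutral amino acids, went from 2.03 to 13 FPKM (2.68), GAL3ST4, a sulfotransferase, from 1.98 to 14.6 FPKM (2.88), and HSPA4L, a heat shock protein of the HSP110 family, from 2.46 to 12.5 FPKM (2.35). These genes were named by the size of their rise alone.

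Transcripts of dividing cells made up the other side. Across 4 lists (G1/S and DNA replication, mitosis, homologous recombination and Fanconi repair, and chromatin and nuclear envelope genes), 231 of 256 genes were among those compared. Of the 231, 220 (95.2%) were at least 2-fold lower, against 7.08% of all genes, and none was higher. Their median log2 change was -3.27, and 84 of them ended below 1 FPKM. The size of these falls rests on the floor: at 5 FPKM in place of 1 the medians given below were -2.27 for mitosis and -1.70 for G1/S and replication genes. Summed over the 245 genes of these lists with a value, compared or not, the level was 9782 FPKM in the control. It was 8941, 7382, 3051 and 1688 FPKM at 2, 4, 6 and 19 h. In RNA from whole cultures, fewer cycling cells and less of these transcripts per cell cannot be told apart.

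Mitotic genes fell furthest, with 107 of 110 lower and a median log2 change of -3.87. Summed over the 113 genes of the mitosis list with a value, the level was 4168 FPKM in the control and 374 FPKM at 19 h. MKI67, the proliferation marker Ki-67 that coats mitotic chromosomes, had the largest fall of all genes, at 77.6, 72.4, 50.4, 6.41 and 0.706 FPKM from the control to 19 h (-6.28). CDC20, the activator of the anaphase-promoting complex, was at 124, 114, 87.5, 15.4 and 2.33 FPKM (-5.74). CDK1, the kinase that drives entry into mitosis, was at 49.5, 43, 37.6, 7.81 and 0.946 FPKM (-5.63), and its partner CCNB1 at 92.8, 83.6, 72.2, 17.7 and 3.56 FPKM (-4.71). These genes were lowest at 19 h, and in FPKM most of each fall lay between the 4 h and 6 h libraries. On the log2 scale that step was not most of the fall.

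Each functional group of the mitosis list moved the same way. All 21 kinases, phosphatases and cyclins were lower, with PLK1 at -5.29, AURKB at -5.27 and, at the near end, WEE1 and CDC25B at -1.46 and -1.35. Of 36 kinetochore and checkpoint genes 35 were lower, from CDCA8 (-5.60), HJURP (-5.32) and CENPF (-5.31) to MIS12 (-1.04), and NSL1 had a log2 change of -0.49. Of 29 kinesins and spindle genes 28 were lower, including CEP55 (-5.71), which acts in the final cut between daughter cells, KIFC1 (-5.64), KIF20A (-5.58) and KIF2C (-5.42), while CKAP5 stood at -0.95. Of the remaining 24 genes, among them the condensin subunits, 23 were lower. FOXM1, a transcription factor of the G2 and M phases, went from 68.9 to 8.51 FPKM (-3.02). FZR1, the activator of the anaphase-promoting complex that works in G1 phase, had a log2 change of -0.78.

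Genes of the G1/S transition and DNA replication fell in 56 of 61 cases, with a median log2 change of -3.04. All 20 licensing factors were lower, among them CDC6 (26.7 to 0.45 FPKM, -4.74) and the 6 subunits of the replicative helicase MCM2 to MCM7, whose log2 changes ran from -4.46 (MCM2) to -3.23 (MCM6). At the fork 17 of 20 were lower, led by the flap nuclease FEN1 (-4.15) and the clamp loader subunit RFC3 (-4.14). The exceptions were POLD2 and LIG1, both close to 2-fold lower, and PCNA. Among nucleotide synthesis genes 8 of 9 were lower. RRM2 went from 109 FPKM in the control to 105, 71.4, 8.38 and 1.78 FPKM at 2, 4, 6 and 19 h (-5.94), whereas TYMS, thymidylate synthase, had a log2 change of -1.11. Of 12 genes of E2F and cyclin control 11 were lower, including MYBL2 (-5.55), CCNA2 (-5.02) and E2F1 (27.3 to 0.66 FPKM, -4.77). E2F7, a repressor of the same family, was at 10.3 FPKM in both libraries (0.01).

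Homologous recombination and Fanconi genes were lower in 27 of 28 cases (median -2.78), including BRCA1 (-3.33) and FANCI (-4.39), with ATR at -0.35. With a floor of 5 FPKM 11 of 28 were called, with a median of -0.90. Chromatin and nuclear envelope genes were lower in 30 of 32 (median -2.31). LMNB1, lamin B1 of the nuclear lamina, was at 58.8, 50.3, 28.8, 4.24 and 1.79 FPKM from the control to 19 h (-5.04). HMGB2, an architectural DNA-binding protein, went from 137 to 7.48 FPKM (-4.20), and EZH2, the histone H3 methyltransferase of Polycomb, from 24.4 FPKM downward with a log2 change of -3.23.

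Of the 590 lower genes, 341 were on no list, and the 15 largest falls were all of listed genes. SHCBP1 and IQGAP3, both with roles in cytokinesis, had log2 changes of -5.08 and -5.05. TRIP13, an ATPase that remodels checkpoint complexes, stood at -4.29 and CDKN3, a phosphatase acting on cyclin-dependent kinases, at -3.94. ZNF367 was at 18.6, 18.4, 3.84, 0.408 and 0.179 FPKM (-4.22) and FAM111B at 15.6, 11.3, 2.67, 0.281 and 0.055 FPKM (-3.96). These 2 genes were already low in the 4 h library, at which CDK1 was at 37.6 FPKM.

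**Figure D3:**
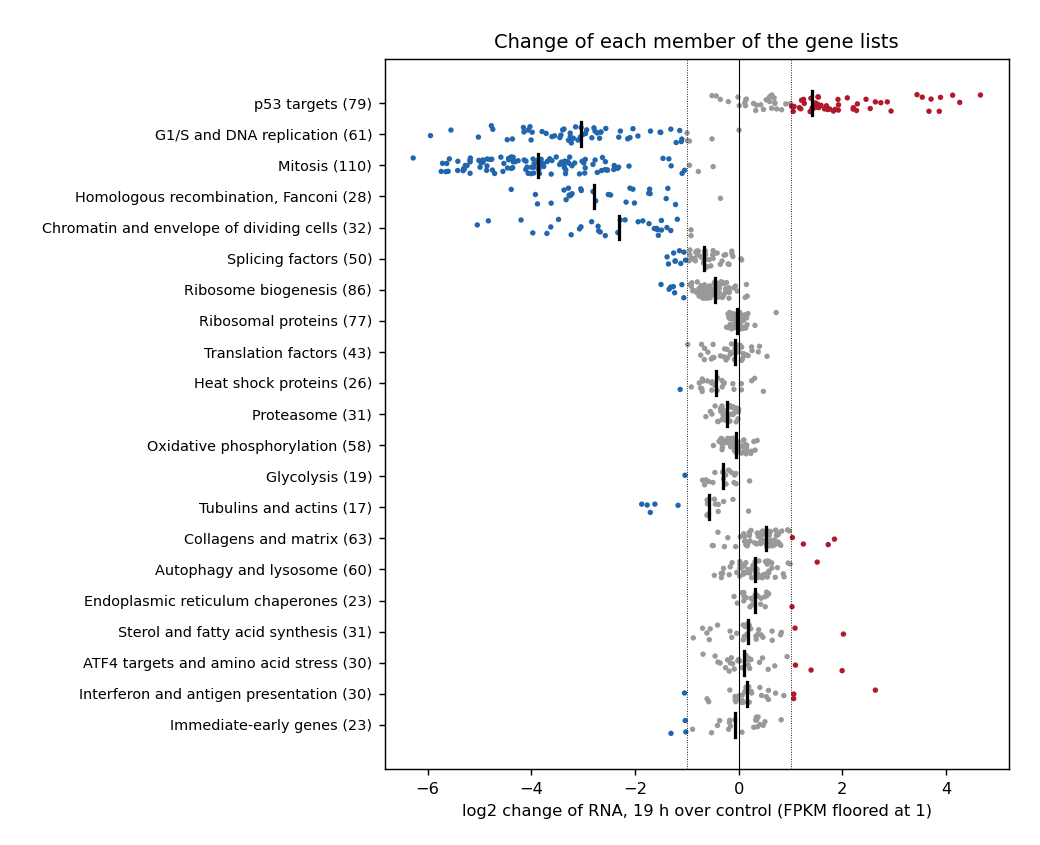
Each point is a gene of the list named at the left (members compared in brackets), placed by its log2 RNA change at 19 h on values floored at 1 FPKM. Red points are at least 2-fold higher, blue at least 2-fold lower, black bars are medians and dotted lines mark 2-fold. The 4 lists of dividing cells lie at the left (medians -3.87 to -2.31), the p53 targets at the right (1.42), and the other lists within 0.7 of 0.

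Promoters of the genes that fell together are shown next because certain sequence elements are known from cell-cycle promoters. The cell cycle genes homology region (CHR, searched as TTTGAA) and the CCAAT box are typical of genes of G2 and mitosis, and E2F sites (searched as TTTCCCGC or TTTGGCGC) of genes of G1/S. RefSeq promoters of build GRCh38.p14 run from 250 bases before to 50 bases after a gene's start, and they were matched for 6920 of the 8330 genes, of which 177 were called higher and 491 lower. Both strands were searched, at the first start listed for a gene. The lines below give the upstream stretches of the lower genes with the largest falls that hold a CHR and a CCAAT box close together, 5′ to 3′ on the gene's strand, with both elements in capitals. Where the 2 elements share a base, as in TTTGAATTGG, they run together.
MKI67, minus strand, chr10:128126424-128126493: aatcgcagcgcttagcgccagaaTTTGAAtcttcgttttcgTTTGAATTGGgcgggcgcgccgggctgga
CDC20, plus strand, chr1:43358888-43358957: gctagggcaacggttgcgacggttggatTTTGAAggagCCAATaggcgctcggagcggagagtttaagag
CEP55, plus strand, chr10:93496470-93496539: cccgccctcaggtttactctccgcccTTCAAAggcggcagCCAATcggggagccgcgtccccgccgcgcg
CDK1, plus strand, chr10:60778143-60778212: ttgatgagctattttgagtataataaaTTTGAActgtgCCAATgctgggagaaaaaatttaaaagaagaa
CDCA8, plus strand, chr1:37692446-37692515: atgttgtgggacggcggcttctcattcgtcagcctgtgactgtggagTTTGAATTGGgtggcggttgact
HJURP, minus strand, chr2:233854605-233854674: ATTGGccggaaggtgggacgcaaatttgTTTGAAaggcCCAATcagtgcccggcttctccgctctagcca

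The G1/S and replication genes with the largest falls among those that hold an E2F site before their start are given in the same way, with the E2F site in capitals.
E2F1, minus strand, chr20:33686386-33686435: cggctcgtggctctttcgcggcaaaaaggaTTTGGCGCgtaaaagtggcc
RFC3, plus strand, chr13:33818073-33818122: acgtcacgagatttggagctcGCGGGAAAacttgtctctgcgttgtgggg
CDT1, plus strand, chr16:88803733-88803782: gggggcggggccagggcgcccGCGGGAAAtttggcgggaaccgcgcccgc
GINS2, minus strand, chr16:85688957-85689006: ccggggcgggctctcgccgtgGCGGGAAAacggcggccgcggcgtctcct

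The CHR was in 25.5% of the promoters of lower genes, against 9.38% of all genes compared, 7.91% of higher genes and 15.4% of all 27305 promoters in the table. With a motif at any start listed for a gene, the CHR share was 28.9% of lower, 13.4% of all compared and 14.7% of higher genes, so the higher genes lay below the background by the first rule and above it by the second. Among the 37 promoters of genes at least 4-fold higher it was 16.2%. A CCAAT box was in 50.9% of lower, 37% of all compared, 36.2% of higher and 35.7% of all promoters in the table. An E2F site was in 12.2% of lower, 4.1% of all compared, 3.39% of higher and 2.31% of all promoters in the table. The elements were spread unevenly over the lower genes. Of 88 promoters of lower mitotic genes 60.2% held a CHR and 6.82% an E2F site, whereas of 47 promoters of lower G1/S and replication genes 4.26% held a CHR and 36.2% an E2F site. A p53 response element was searched as a pair of half-sites RRRCWWGYYY (R is A or G, Y is C or T, W is A or T). At most 2 letters could be off, none of them in the CWWG core of either half-site. The spacer was at most 1 base. The element was in 0.173% of the promoters of genes compared (12 promoters) and 0.267% of all promoters in the table. The share was 0.565% for higher genes (1 promoter, that of ACTA2) and 0.204% for lower genes (1 promoter, that of HAUS6). Of 42 promoters of higher genes on the p53 list, 0 held the element. Elements outside the promoter window were not searched, so these shares cannot tell whether the higher genes lack such elements. A match describes the letters in this window, not binding, and no test of these shares was made.

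**Figure D4:**
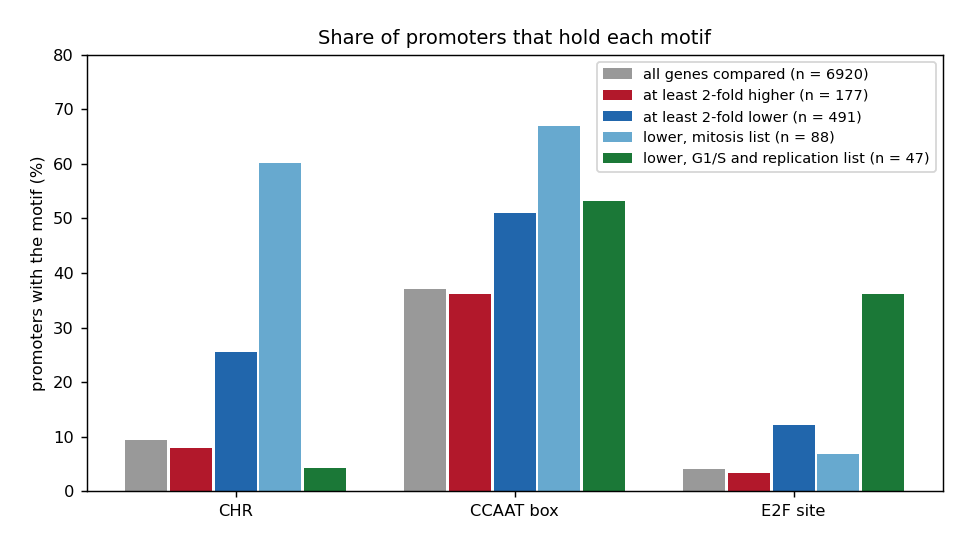
Share of promoters (%) that hold a CHR, a CCAAT box or an E2F site, for all genes compared, genes called higher, genes called lower, and the lower genes of the mitosis and the G1/S and replication lists, with the number of promoters in brackets. The CHR bar is tallest for mitotic genes (60.2%) and the E2F bar for G1/S genes (36.2%).

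The RNA of the translation machinery stayed near its control level, whereas that of ribosome assembly stood below it by less than 2-fold in most cases. None of 77 ribosomal protein genes and none of 43 translation factors was called in either direction, with median log2 changes of -0.03 and -0.07. RPS19 had the largest change of the ribosomal proteins, at 529 and 873 FPKM (0.72). Of 86 ribosome biogenesis genes 83 had a change below 0, against 55.4% of all genes, with a median of -0.46. Called lower were 7 (8.14%), close to the 7.08% of all genes. The lower ones included LYAR (-1.50), FBL, the methyltransferase fibrillarin (88 to 35.4 FPKM, -1.31), NOP56 (-1.26) and DKC1 (-1.24).

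Splicing factors leaned the same way, with 48 of 50 below 0, a median log2 change of -0.66 and 9 (18%) called lower, against 7.08% of all genes. The lower ones included HNRNPAB (-1.38), SNRPB, a core protein of the spliceosomal particles (127 to 49.5 FPKM, -1.35), SRSF7 (-1.25) and PTBP1 (-1.14). Among tubulin, actin and other cytoskeletal genes 5 of 17 (29.4%) were lower, all of them tubulins. TUBB was at 1089, 1016, 917, 560 and 355 FPKM from the control to 19 h (-1.62) and TUBA1B at 634, 587, 547, 386 and 173 FPKM (-1.87). TUBB6 had a log2 change of -0.60 and ACTB, at 4061 and 2658 FPKM, one of -0.61. Tubulins share sequence, and the authors kept only reads with a unique hit, so these levels are those of reads that tell the copies apart.

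Of 63 collagen and matrix genes 57 had a change above 0, against 44.6% of all genes, with a median log2 change of 0.53, and 4 (6.35%) were called higher, against 2.68% of all genes. Those 4 were COL7A1, the collagen of anchoring fibrils (30.3, 26.6, 46.6, 73 and 109 FPKM from the control to 19 h, 1.85), the proteoglycan VCAN (1.73), COL4A5 of basement membranes (1.25) and the membrane-bound protease MMP14 (108 to 222 FPKM, 1.04). COL1A1, at 1642 FPKM in the control and 1558, 1634, 1501 and 2923 FPKM at 2, 4, 6 and 19 h, had a log2 change of 0.83. COL1A1 thus stood above the control in the 19 h library alone. FN1, fibronectin, was at 1249 and 2114 FPKM (0.76). The summed level of the list was 13902 FPKM in the control and 20959 FPKM at 19 h.

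Autophagy, lysosome and chaperone genes were mostly above their control level without passing 2-fold. Of 60 autophagy and lysosome genes 51 had a change above 0, against 44.6% of all genes, with a median log2 change of 0.32. FUCA1, a lysosomal fucosidase that is also on the p53 list, was the 1 gene called higher (1.51), which is 1.67% of the list against 2.68% of all genes. Of 23 endoplasmic reticulum chaperone genes 21 were above 0, with a median of 0.32. DNAJB9 alone was called higher (5.92 to 12.1 FPKM, 1.03), which is 4.35% of the list against 2.68% of all genes. CALR, the calcium-binding chaperone calreticulin, was at 946 and 1411 FPKM (0.58).

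Other signalling lists held few calls, to be read against 2.68% higher and 7.08% lower over all genes. Of 30 interferon and antigen presentation genes 3 (10%) were higher, namely TRIM22 (12.8 to 79.7 FPKM, 2.64), which is also on the p53 list, the interferon signal transducer STAT2 (1.06) and the peptide transporter TAP1 (1.06), while OAS3 was lower (-1.04). Of 31 sterol and fatty acid synthesis genes 2 (6.45%) were higher, TM7SF2 (1.31 to 5.33 FPKM, 2.02) and HMGCS1 (1.09). Of 30 ATF4 target and amino acid stress genes 3 (10%) were higher, DDIT4, an inhibitor of mTORC1 (3.05, 10.8, 34.2, 10.1 and 12.1 FPKM from the control to 19 h, 2.00), NUPR1 (1.40) and CHAC1 (7.58, 28.8, 37.4, 12 and 16.2 FPKM, 1.09). DDIT4 and CHAC1 were highest in the 4 h library.

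Of 23 immediate-early genes, which serum and growth factors induce within minutes, 3 (13%) were lower at 19 h, against 7.08% of all genes, KLF6 (-1.30), KLF2 (-1.03) and MYC (24.2, 28.6, 17, 9.91 and 11.9 FPKM from the control to 19 h, -1.02). EGR1 was at 47.8, 122, 67, 50.1 and 67.9 FPKM (0.51). The summed level of the list was 777, 1644, 953, 604 and 693 FPKM, so the 2 h library stood above both ends of the course. Of 28 secreted inflammatory factors only 11 reached 5 FPKM, and 1 of these (9.09%) was called higher, against 2.68% of all genes. This was CSF1, a macrophage growth factor (16.5 to 36.3 FPKM, 1.14). Of 18 genes of the IGF axis and growth factor receptors 2 (11.1%) were lower, against 7.08% of all genes. They were HBEGF (-1.15) and FGF5 (113 to 53.4 FPKM, -1.08). ACTA2, smooth muscle actin, was the only call among 20 contractile and YAP-responsive genes (5% higher, against 2.68% of all genes). It was at 21.5, 21, 48.3, 93.3 and 95.4 FPKM from the control to 19 h (2.15).

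The most abundant transcripts were largely shared by both libraries, and none passed 2-fold. VIM (4194 and 3431 FPKM), LGALS1 (4008 and 3725 FPKM), ACTB, ACTG1, EEF1A1, GAPDH, TMSB10 and COL1A2 were among the 10 highest in the control and at 19 h. ANXA2 and S100A6 were among the 10 highest in the control only, and COL1A1 and FN1 at 19 h only. COL1A1 and FN1 were 1.78- and 1.69-fold the control, the largest changes upward among them. The 12 transcripts that make up these lists took 8.17% of the control reads and 8.05% of those at 19 h.

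Ribo-Seq libraries of the same conditions, which did not enter the calls, gave a second reading of the called genes. Ribo-Seq sequences the mRNA fragments that ribosomes protect, and its level per gene is called ribosome density here. Of the 223 higher genes 168 had at least 5 FPKM in either Ribo-Seq library, and 137 of these (81.5%) were at least 2-fold higher in density, against 6.37% of the 6675 genes with such a value. Of 473 lower genes with a density value, 428 (90.5%) were at least 2-fold lower in density, against 15.2% of the 6675. The median log2 change of density was 1.57 for the higher and -2.18 for the lower genes, and -0.20 over all 6675. For CDKN1A density was at 164 and 3227 FPKM (log2 change 4.30), for MDM2 at 5.45 and 55.2 FPKM (3.34) and for RRM2 at 136 and 1.93 FPKM (-6.13). Across the 6675 genes Pearson's r of the RNA and density changes was 0.846 and Spearman's rho 0.732, a description across genes that share 1 library a side in each assay. The Ribo-Seq libraries were shallower, with 11763290 (control) and 7744899 (19 h) reads. In the study's read statistics, its nutlin-3a Ribo-Seq libraries and their control had a smaller share of in-frame reads than the other listed Ribo-Seq libraries. Transcript lengths worked back from both assays matched in 87.1% of cases, so density here seems to include reads outside the coding sequence. The study's methods count coding reads alone for translation.

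The gene groups differed in how far density stood from RNA. Over all 6675 genes 6.37% were at least 2-fold higher in density and 15.2% lower, with a median log2 change of -0.20. Of the mitotic genes with a density value 88 of 91 were at least 2-fold lower in density, and of the G1/S and replication genes 50 of 54. Of the 77 ribosomal protein genes, none of which was called in RNA, 55 were at least 2-fold lower in density, with a median log2 change of -1.30. Of 62 matrix genes with a value 39 were at least 2-fold higher in density, with a median of 1.33, and of the 20 collagens 19 were. COL1A1, at 0.83 in RNA, had a log2 change of 2.31 in density.

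**Figure D5:**
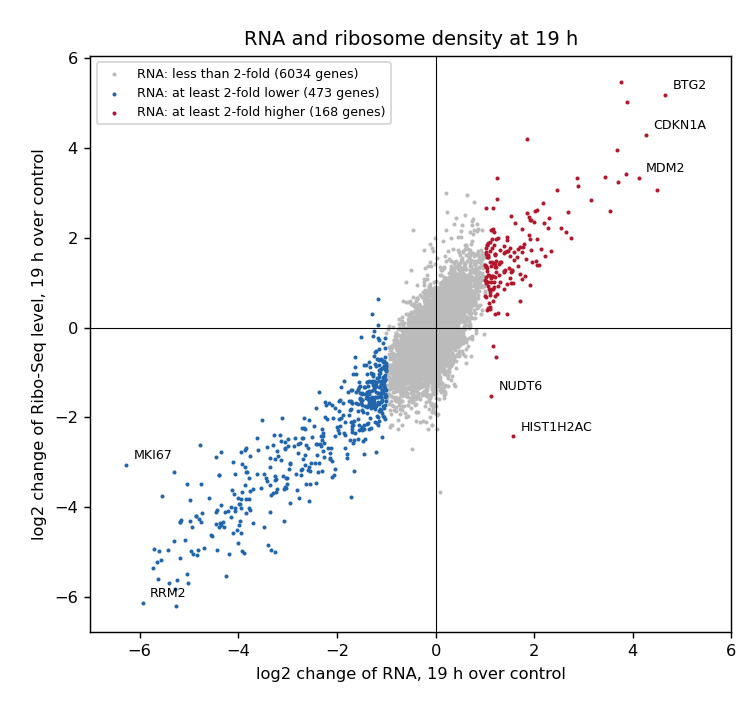
Each point is 1 of 6675 genes with at least 5 FPKM in either library of both assays. The x axis is the log2 change of RNA and the y axis that of the Ribo-Seq level, 19 h over control, and colours mark genes at least 2-fold higher (red) or lower (blue) in RNA. Most coloured points lie in the corners where both changes have the same sign, and HIST1H2AC and NUDT6 lie at the lower right.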

How the data were processed

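Per the labels, poly(A) RNA and, separately, ribosome-protected fragments of BJ cells were sequenced. The authors aligned reads with Bowtie to protein-coding transcripts of Ensembl release 65, with a single isoform per gene, and kept unique hits. The deposited values are FPKM with 3 decimals. The 2 tables hold 5 columns each, and file names told the assays apart. No value is 0, so a transcript without a read in even 1 of the 5 libraries is not listed and cannot be among the calls. Groups and times came from the labels, with 1 library per group.

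Values were floored at 1 FPKM, as in the study's methods, and log2 changes of 19 h over control were taken for genes with at least 5 FPKM in either library. A fold of 2 was the call, and no test was made. FPKM is relative to the library total, so a change is relative to all other transcripts. Transcript lengths, reads and totals were worked back from the steps between values, for 98.2% of the genes compared, in a procedure tested on simulated data. They gave the counting SE and the exact (Clopper-Pearson) 95% interval of the unfloored fold. Whether reads were counted by strand is not given in the sources used here. The genes and lists were chosen with earlier results of these data known. Named genes were the 15 largest changes each way, the 10 highest in each library, the 20 largest each way on no list, list members, MDM2 and CDKN1A, and genes with opposite calls in RNA and density. Some genes that this rule names are not reported here. Promoters came from RefSeq (GRCh38.p14). Alternatives were other floors, filters, folds, centring, and the 2 h library as baseline. Python 3.11.15, pandas 2.3.3 and scipy 1.17.1 were used.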

Additional observations from a re-analysis of the deposited data

Results flagged for a closer look

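Of the genes called higher in RNA with a density value, 2 were at least 2-fold lower in ribosome density, and no gene called lower in RNA was 2-fold higher in density. HIST1H2AC, a histone H2A gene, was at 4.39 FPKM in the RNA-Seq control and 13.1 FPKM at 19 h, a log2 change of 1.58, and at 635 and 118 FPKM in Ribo-Seq, a log2 change of -2.43. It belongs to a family with near-identical copies, so its reads are uncertain. Per the labels RNA-Seq was of poly(A) RNA and Ribo-Seq of ribosome-protected fragments, so its RNA value is that of poly(A) transcripts alone. Whether both assays sampled the same HIST1H2AC transcripts was not tested. NUDT6, a nudix hydrolase, was at 30.3 and 66.3 FPKM in RNA, a log2 change of 1.13, and at 6.33 and 2.21 FPKM in Ribo-Seq, a log2 change of -1.52. NUDT6 overlaps FGF2 on the opposite strand, and without strand the reads of both cannot be told apart. Each value rests on 1 library, and the difference between the assays was not tested.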

How the results depend on the processing

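No paired analysis was possible because each group is 1 library. The medians of some lists near 0 changed sign. Against the 2 h library they were -0.64 for inflammatory, -0.15 for ATF4, 0.11 for ribosomal protein and 0.07 for oxidative phosphorylation genes. Centring gave 0.02 for ribosomal protein, 0.03 for contractile and 0.01 for oxidative phosphorylation genes, restricting to means from 20 FPKM gave -0.04 for ATF4 genes, and no filter gave 0.02 for immediate-early genes. Where the mean was 20 FPKM or more, 69 genes were higher and 180 lower of 3414. At 1.5-fold 627 were higher and 1192 lower, and at 4-fold 46 and 277. The study's sliding cut-off, set on the local SD, called 300 genes lower and 160 higher, of which 292 and 135 were also past 2-fold.

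With a mean of at least 20 FPKM, fewer genes were left of every list but the ribosomal proteins. Called higher were then 29 of 43 p53 targets, 2 of 55 matrix genes and 0 of the sterol, ATF4, autophagy and endoplasmic reticulum lists. Called lower were 22 of 24 G1/S, 37 of 38 mitosis (median -4.62), 1 of 1 repair (-3.88), 18 of 19 chromatin, 4 of 34 ribosome biogenesis, 1 of 14 IGF axis, 0 interferon and 1 of 13 immediate-early genes. A floor of 5 FPKM gave medians of -1.70 (G1/S), -2.27 (mitosis) and -0.90 (repair, with 11 lower), 1 sterol gene higher, 1 IGF axis gene lower and 0 interferon genes lower. Adding 1 FPKM in place of a floor left 1 IGF axis, 0 interferon and 1 immediate-early gene lower and 0 endoplasmic reticulum genes higher. Centring on the median left 0 interferon, 1 immediate-early and 0 glycolysis genes lower and 3 autophagy genes higher. Without a filter 3 inflammatory factors were higher.

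Against the 2 h library, 1 sterol, 1 ATF4, 0 inflammatory and 0 endoplasmic reticulum genes were higher, 14 of 25 immediate-early genes were lower (median -1.16), and CHAC1 changed sign (-0.83). Of 368 single genes followed, 57 were no longer called at a floor of 5 FPKM, 25 against the 2 h library, 10 with the added 1 FPKM and 6 after centring.

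Of higher genes, 87.5% were higher in density at 20 FPKM of Ribo-Seq and 88.1% with density centred, where 85.4% of lower genes were lower in density. The rule for promoters was widened, after the data were seen, to any start listed for a gene. The CHR share was then 13.4% of all, 14.7% of higher and 28.9% of lower genes, the CCAAT share 43.8%, 44.1% and 58.2%, and the E2F share 5.01% of all. Depth limits little here, since 128 genes had a counting SE over 0.2, but without replicates the spread between cultures is unknown.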

Other observations

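Lists of general cell maintenance, not described above, held few calls, to be read against 2.68% higher and 7.08% lower over all genes. Of all genes compared, 55.4% had a change below 0 and 44.6% above 0. Of 26 heat shock and chaperonin genes 21 had a change below 0, with a median log2 change of -0.44. CCT5, a subunit of the cytosolic chaperonin, was the only call (3.85% of the list), at 108 and 49.4 FPKM (-1.13). HSPD1, its mitochondrial counterpart, was at 177 and 94 FPKM (-0.91). Of 19 glycolysis genes 18 were below 0, with a median of -0.29, and 1 (5.26%) was called lower, ENO1, enolase. ENO1 was at 1057 FPKM in the control and 1010, 1009, 965 and 516 FPKM at 2, 4, 6 and 19 h (-1.03). It was just past 2-fold at 19 h and near its control level until 6 h. None of 58 oxidative phosphorylation genes (40 below 0, median -0.05) and none of 31 proteasome genes (30 below 0, median -0.23) was called. Of 23 NRF2 and antioxidant genes 12 were above 0 (median 0.02), and 1 (4.35%) was called higher. This was GPX1, a glutathione peroxidase that is also on the p53 list (162 to 336 FPKM, 1.05).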
